A study of Homo sapiens and Mus musculus with 16 samples.

Results

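The genes described here were 9 human members of the MAGE family in MDA-MB-231 cells, namely MAGEA3, MAGEA4, MAGEA6, MAGEA12, MAGEB2, MAGED1, MAGED2, MAGEE1 and MAGEH1, and the 4 mouse genes of matching name in CT26 cells, namely Maged1, Maged2, Magee1 and Mageh1. They were taken by gene symbol, 9 of the 58713 genes tabulated for MDA-MB-231 and 4 of the 53796 for CT26. The symbols were picked knowing how they differed between genotypes, so the differences of these 13 genes are given as a description, with no test. MDA-MB-231 derives from a human triple-negative breast carcinoma and CT26 from a mouse colon carcinoma. Each line had 4 libraries of total RNA from PD-L1 KO cells, made by CRISPR delivered with lentivirus, and 4 from PD-L1 wild type (WT) cells. MDA-MB-231 was grown in DMEM and CT26 in RPMI 1640, both with serum, penicillin and streptomycin, in both genotypes. The labels do not say if KO cells were a clone or a pool, nor if libraries within a group stem from different cultures. A p-value here therefore reflects the spread among 4 libraries, which may be technical only. PD-L1 (gene CD274, in mouse Cd274) is the surface protein that engages PD-1 on T cells.

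MAGE genes share a conserved domain, the MAGE homology domain, through which their proteins bind particular RING ubiquitin ligases and alter what those ligases act on. Type I members (the MAGEA, MAGEB and MAGEC subfamilies) lie on the X chromosome and are normally transcribed in male germ cells and silenced in other tissues, in large part by promoter DNA methylation. Many tumours transcribe them again, and peptides of MAGEA3 and its relatives were among the early human tumour antigens seen by T cells, hence the name cancer-testis genes. Type II members, such as MAGED1, MAGED2, MAGEE1 and MAGEH1, are transcribed in many normal tissues. Of the 9 human genes 5 are germline-restricted and 4 are widely expressed, and the 4 mouse genes are all of the widely expressed kind.

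The sequence just before the transcription start sets the germline-restricted members beside a widely expressed one, and the stretches below show what the promoters of raised and silent members have in common. The sequences are from RefSeq (GRCh38.p14) and begin 250 bases before the RefSeq start of each gene's most upstream entry. The stretch ends before any base that GENCODE 29 places inside the gene, and MAGEA3 and MAGEA6 were ended at the same base. The capitals mark the 8 letters GGATGTGA.
MAGEA6 (chrX:152769748-152769939, minus strand): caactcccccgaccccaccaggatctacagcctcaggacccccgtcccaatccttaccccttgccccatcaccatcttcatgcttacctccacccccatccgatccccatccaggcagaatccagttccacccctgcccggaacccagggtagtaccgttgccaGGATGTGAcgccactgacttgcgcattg
MAGEB2 (chrX:30215313-30215559, plus strand): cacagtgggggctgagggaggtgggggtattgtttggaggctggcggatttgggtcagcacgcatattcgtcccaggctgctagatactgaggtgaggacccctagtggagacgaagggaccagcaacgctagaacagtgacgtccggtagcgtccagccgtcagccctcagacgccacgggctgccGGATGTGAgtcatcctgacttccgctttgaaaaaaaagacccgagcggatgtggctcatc
MAGEA12 (chrX:152733507-152733756, plus strand): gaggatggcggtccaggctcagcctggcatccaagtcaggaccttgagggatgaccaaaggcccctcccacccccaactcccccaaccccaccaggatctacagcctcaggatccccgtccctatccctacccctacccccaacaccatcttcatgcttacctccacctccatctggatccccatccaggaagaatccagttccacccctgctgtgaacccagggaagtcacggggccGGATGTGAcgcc
MAGEA4 (chrX:151912224-151912473, plus strand): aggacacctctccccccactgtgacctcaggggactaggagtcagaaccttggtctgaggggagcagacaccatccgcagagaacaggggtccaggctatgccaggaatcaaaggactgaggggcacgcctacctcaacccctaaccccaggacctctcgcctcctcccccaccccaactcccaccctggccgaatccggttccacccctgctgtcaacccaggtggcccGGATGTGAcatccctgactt
MAGED1 (chrX:51802826-51803006, plus strand): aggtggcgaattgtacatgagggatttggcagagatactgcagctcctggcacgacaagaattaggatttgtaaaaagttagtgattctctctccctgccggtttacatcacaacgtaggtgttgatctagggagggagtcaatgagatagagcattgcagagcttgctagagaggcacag

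The MAGEA3 promoter (chrX:152698544-152698735, plus strand, over the same stretch) is not printed because it has the same letters as that of MAGEA6: the RefSeq windows of both genes differed at 0 of 300 bases. The 8 letters GGATGTGA, searched on both strands in the 250 bases before the start, were found in all 5 germline-restricted members. They were found in no window of MAGED1, MAGED2 or MAGEE1, and RefSeq gave 8 of the 9 human members, in 15 windows, with no entry for MAGEH1. They began 86 bases before the start in MAGEA3 and MAGEA6, 63 bases before it in MAGEB2, and 12 and 20 bases before the most upstream start of MAGEA12 and MAGEA4. The letters were chosen after the sequences were seen. They occur in 0.965% of all 35116 promoter windows and in 2.67% of the 1236 windows of chromosome X, and in 12 of 23 type I and 0 of 8 type II MAGE genes with an entry. They contain the core GGAT that some ETS factors bind, which is a description of the letters and not of a bound site. Among the 99 tested MDA-MB-231 genes with these letters, members included, 50.5% were higher and 27.3% lower in KO cells (limma, adjusted p below 0.05), against 46.3% and 26.7% of the 9743 tested genes with any promoter entry. The E-box CACGTG (6.34% of all windows) and the cAMP response element TGACGTCA (1.65%), both searched on both strands, were in 0 of the members with an entry. CTTCCG, which reads CGGAAG on the other strand (16.5% of all windows), was in windows of 3 members, MAGEA4, MAGEB2 and MAGED1. The CpG dinucleotide, the site of DNA methylation, occurred 15 times in the 250 bases of MAGEA3, of MAGEA6 and of MAGEB2. It occurred 5 and 13 times in the windows of MAGEA12, 6 to 14 times in those of MAGEA4, 6 and 17 times in those of MAGED1, 6 and 8 times in those of MAGED2 and 12 times in that of MAGEE1, against a median of 11 over all windows with quartiles of 3 and 23. Methylation was not measured in these samples.

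In MDA-MB-231, MAGEA6 and MAGEB2 were at 29.3 to 47.3 FPKM in every KO library and at or near 0 in every WT library (FPKM, fragments per kilobase of transcript and per 1000000 mapped fragments). MAGEA3 had a low level in KO libraries alone, and MAGEA12 and MAGEA4 were at or near 0 in both genotypes. Of the widely expressed members, MAGED1, MAGED2 and MAGEE1 were lower in every KO library than in every WT library, while MAGEH1 overlapped between the groups. In CT26, Maged1 was slightly higher in KO cells, the opposite direction to MAGED1. The plot of the members by library shows all of these values.

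**Figure D1:**
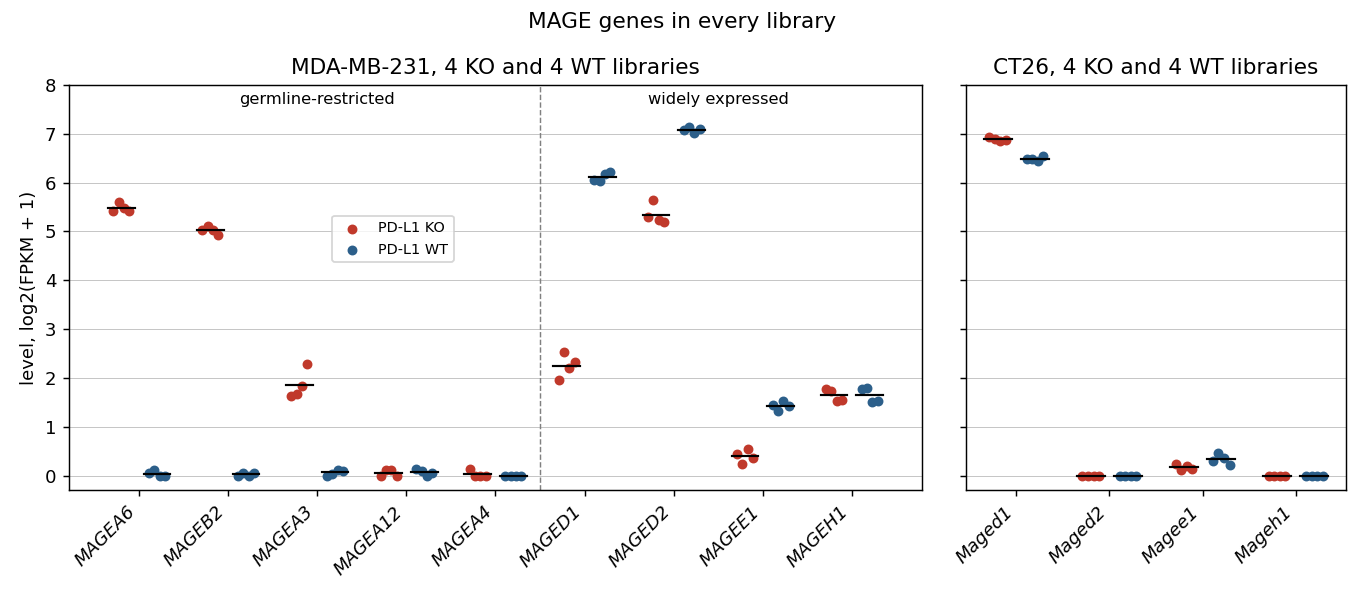
Level of each MAGE gene in every library, as log2(FPKM + 1), with KO libraries (red) left of WT libraries (blue), black bars at the group means and n = 4 libraries per group. MAGEA6, MAGEB2 and MAGEA3 sit above 0 in KO and close to 0 in WT libraries, MAGED1, MAGED2 and MAGEE1 sit lower in KO than in WT libraries, and Maged1 of CT26 sits higher in KO than in WT libraries.

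The depth behind these values was read from the smallest steps of the FPKM values and the transcript lengths. It came to 9.66 to 14.53 M fragments (M, 1000000) per KO library and 17.55 to 22.59 M per WT library of MDA-MB-231. In CT26 the depth could be had only relative to WT replicate 1, and was 0.923 to 2.494 in KO and 0.801 to 1.139 in WT libraries. A gene was tested where it had at least 1 FPKM in at least 4 of the 8 libraries of a line. That left 14450 genes in MDA-MB-231, of which 68.2% differed (42.6% higher and 25.7% lower in KO cells), and 11341 in CT26, of which 55.8% differed (22.3% higher and 33.4% lower), in limma on log2(FPKM + 1) at an adjusted p below 0.05. The median log2 difference over all tested genes was 0.18 in MDA-MB-231 and -0.06 in CT26. The targeted transcript CD274 averaged 10.6 ± 1.91 FPKM in KO and 12.2 ± 0.670 FPKM in WT cells of MDA-MB-231 (SD, n = 4 each; log2 difference -0.20, limma adjusted p = 0.166), a difference that did not pass the test. Cd274 averaged 0.526 ± 0.0552 FPKM in KO and 1.41 ± 0.127 FPKM in WT cells of CT26 (log2 difference -0.66, limma adjusted p = 1.42e-04). As for the line's own markers, MDA-MB-231 had vimentin (VIM) at 2545 FPKM in KO and 1113 FPKM in WT cells, and the hormone receptor genes ESR1 and PGR at a mean of no more than 0.0502 FPKM in either group. Of 9 tested identity markers of that line 4 rose (VIM, AXL, EGFR and ZEB1) and 5 fell (CD44, CDH1, EPCAM, ERBB2 and FN1). The shares over all tested genes were 42.6% and 25.7%. Of those that fell, CDH1, EPCAM and ERBB2 were listed as genes expected to be low in this line, and CD44 and FN1 as genes expected to be present. CD44 averaged 321 FPKM in KO and 1093 FPKM in WT cells, and CDH1 0.311 FPKM in KO and 4.15 FPKM in WT cells. CT26 had Vim at 4531 FPKM in KO and 3802 FPKM in WT cells and the keratin gene Krt18 at 31.6 FPKM in KO and 33.7 FPKM in WT cells, while the epithelial adhesion gene Epcam was listed at 0 in all 8 libraries and the intestinal genes Vil1 and Lgr5 were at a mean of no more than 0.00257 FPKM in either group. Of 12 identity markers listed for CT26, 4 were tested, of which 3 rose and 0 fell, against 22.3% and 33.4% of all tested genes.

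MAGEA6 (ENSG00000197172, chrX:152766136-152769747 in GENCODE 29, minus strand, with its whole coding sequence in 1 exon) encodes a protein that joins the ubiquitin ligase TRIM28 to new targets. It had 41.7, 47.3, 43.3 and 41.5 FPKM in the 4 KO libraries, against 0.0347, 0.0861, 0 and 0 FPKM in the 4 WT libraries. All 4 KO libraries lay within a narrow range and no WT library reached 0.1 FPKM, so the groups did not overlap. On the authors' scale this is an estimated 610 to 934 fragments per KO library and 0 to 3 per WT library, so the WT level rests on single fragments and no fold change is given. The log2 difference of FPKM + 1 was 5.43 (SE 0.079), the 7th highest rise among the 14450 tested genes and the highest among the 469 tested genes of chromosome X.

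MAGEB2 (ENSG00000099399, chrX:30215560-30220089, plus strand, coding in 1 exon) lies on the short arm of the X, far from the MAGEA genes on the long arm. It encodes a germ cell protein known to keep stress granules from forming in the testis. MAGEB2 had 31.7, 33.6, 31.5 and 29.3 FPKM in KO libraries, against 0, 0.0314, 0 and 0.0337 FPKM in WT libraries. The KO libraries held an estimated 394 to 649 fragments and the WT libraries at most 1 each. Its log2 difference was 4.999 (SE 0.077), the 9th highest rise of all tested genes and the 2nd of the X.

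MAGEA3 (ENSG00000221867, chrX:152698752-152702347, plus strand, coding in 1 exon), the near-twin of MAGEA6 and the target of past antigen-specific vaccine trials, had 2.09, 2.1799, 2.57 and 3.86 FPKM in KO libraries, against 0, 0.0290, 0.0877 and 0.0729 FPKM in WT libraries. The groups did not overlap, and KO replicate 4 read highest. The estimated fragments were 38 to 56 in KO and 0 to 2 in WT libraries, and the log2 difference was 1.79 (SE 0.15). In the KO libraries the MAGEA3 level was 5.01, 4.61, 5.94 and 9.29% of the MAGEA6 level. Its rise ranked 367th of all tested genes and 14th on the X. MAGEA6, MAGEB2 and MAGEA3 each reached 1 FPKM in KO libraries alone, so they passed the filter only through the group where they are high. They were also picked on this contrast, so nothing is read from their ranks. In the authors' deposited table their q-values are 0.204, 0.163 and 0.0730, none of which passes the threshold of 0.05. The q-values there of MAGED1, MAGED2 and MAGEE1, which fell, are 1.50e-04 each and lie below it. MAGEE1 in turn reached 1 FPKM in WT libraries alone. All of these genes were picked on this contrast, so nothing is read from their q-values either.

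MAGEA12 (ENSG00000213401, chrX:152733779-152737669, plus strand), a close relative that lies between MAGEA3 and MAGEA6 on the chromosome, had 0, 0.0803, 0.0809 and 0 FPKM in KO libraries, against 0.0976, 0.0604, 0 and 0.0325 FPKM in WT libraries. MAGEA4 (ENSG00000147381, chrX:151912509-151925170, plus strand), an antigen of many carcinomas, had 0.106, 0, 0 and 0 FPKM in KO libraries and 0 FPKM in all 4 WT libraries. These are at most 3 estimated fragments per library, so neither gene was tested and a difference was not detectable at this depth. MAGEA12 and MAGEA4 thus stayed at or near 0 in the same KO libraries in which MAGEA6 stood above 40 FPKM. Both promoters hold the letters marked above, whose part in these levels was not tested.

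MAGEA3, MAGEA6 and MAGEA12 are alike enough that reads of one can be assigned to another, and the sources used here do not say how the counting split such reads. The coding sequences of MAGEA3 and MAGEA6 are 98.1% identical, with 18 differences in 942 bases, and their longest identical run is 308 bases. MAGEA12 is 92.4% identical to MAGEA3 and 92.5% to MAGEA6, MAGEA4 is 82.3% identical to MAGEA3, and MAGEB2 is 61.7% identical to MAGEA6. The 60 coding bases with positions 573 to 632, counted from the start codon, show the kind of letters that tell the near-twins apart. The capitals mark bases that differ from MAGEA6 and, in MAGEA6 itself, those that differ from MAGEA3. They are from GENCODE 29 (GRCh38).
MAGEA6 (chrX:152767019-152767078, minus strand): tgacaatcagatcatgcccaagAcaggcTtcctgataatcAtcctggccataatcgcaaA
MAGEA3 (chrX:152701405-152701464, plus strand): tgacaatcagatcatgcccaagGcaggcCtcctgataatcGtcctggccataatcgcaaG
MAGEA12 (chrX:152736734-152736793, plus strand): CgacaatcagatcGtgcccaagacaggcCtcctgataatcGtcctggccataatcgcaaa

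MAGEA3 and MAGEA12 each differ from MAGEA6 at 4 of these 60 bases. Of all 50-base windows in the MAGEA3 transcripts, 54.9% occur unchanged in a MAGEA6 transcript, and of those in MAGEA6, 52.0% occur in MAGEA3. At 100 bases the shares were 34.9% and 33.0%, and at 150 bases 27.1% and 25.6%. For MAGEA12 13.8% of 50-base windows and 1.0% of 150-base windows occur in another MAGE gene, and MAGEB2, MAGED1, MAGED2, MAGEE1 and MAGEH1 share 0 windows at any length tried. Reads of these lengths that match the MAGEA genes in full would thus not be placed in MAGEB2, while the split between MAGEA6 and MAGEA3 is uncertain. The sum of MAGEA3, MAGEA6 and MAGEA12 depends little on how reads are divided among them, provided that each read was counted once. Reads that were dropped, counted in each gene or shared with MAGEA2B, which shares most windows with MAGEA12, could change it. The sum was 46.2 ± 2.43 FPKM in KO and 0.125 ± 0.0382 FPKM in WT cells (SD, n = 4 each), a log2 difference of 5.39 on the FPKM + 1 scale. MAGEA6 made up 94.1% ± 1.81 of the sum in KO libraries. The plot of shared windows gives these shares by window length.

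**Figure D2:**
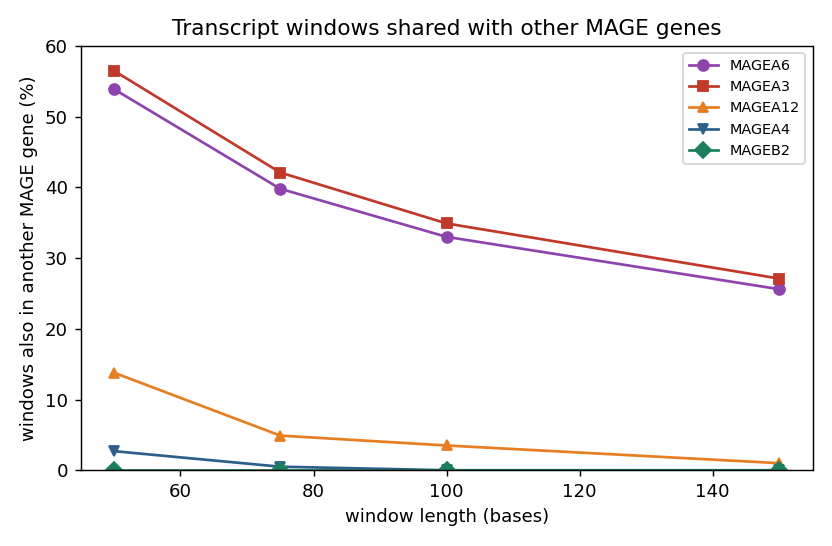
Share of windows in each gene's transcripts, in percent, that occur unchanged in a transcript of another MAGE gene, against the window length in bases. MAGEA3 and MAGEA6 share more than 25% of their windows at every length, MAGEA12 falls to 1.0% at 150 bases and MAGEB2 stays at 0.

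MAGED1 (ENSG00000179222, chrX:51803007-51902357, plus strand, coding in 12 exons), also known as NRAGE, binds the p75 neurotrophin receptor and takes part in developmental apoptosis. It had 2.86, 4.76, 3.61 and 4.001 FPKM in KO libraries, against 65.4, 64.7, 71.0 and 73.1 FPKM in WT libraries. The KO mean of 3.81 ± 0.791 FPKM was 5.56% of the WT mean of 68.5 ± 4.13 FPKM (SD, n = 4 each), with a log2 difference of -3.87 (SE 0.118). The estimated 103 to 144 fragments per KO library, against 3263 to 4103 per WT library, mean that the transcript was low and still detected. In bulk RNA, fewer cells with a transcript and less of it per cell cannot be told apart. Its fall ranked 97th of all tested genes and 2nd on the X.

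MAGED2 (ENSG00000102316, chrX:54807599-54816012, plus strand, coding in 11 exons), which supports salt transporters of the fetal kidney and is mutated in a transient antenatal form of Bartter syndrome, had the highest level of the family in WT cells. It had 38.1, 49.1, 36.8 and 35.3 FPKM in KO libraries, against 133.9, 140.4, 129.1 and 135.2 FPKM in WT libraries, so all 4 KO libraries lay far below the lowest WT library. The KO mean was 29.6% of the WT mean and the log2 difference was -1.74 (SE 0.0966). MAGEE1 (ENSG00000198934, chrX:76427724-76431353, plus strand), a protein of the dystrophin complex in muscle that binds dystrobrevin, was near 1 FPKM and so rested on few fragments. It had 0.360, 0.179, 0.464 and 0.275 FPKM in KO libraries, against 1.71, 1.504, 1.90 and 1.67 FPKM in WT libraries. Its 7 to 18 estimated fragments per KO library stand beside 110 to 120 per WT library, and the KO mean was 18.8% of the WT mean (log2 difference -1.03, SE 0.104, a scale on which so low a gene is compressed).

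MAGEH1 (ENSG00000187601, chrX:55452105-55453566, plus strand), the shortest of the 9 coding sequences at 657 bases, encodes a short protein that is little more than the MAGE homology domain. It had 2.40, 2.31, 1.90 and 1.92 FPKM in KO libraries, against 2.42, 2.45, 1.85 and 1.89 FPKM in WT libraries. The groups overlapped throughout, with means of 2.13 ± 0.258 FPKM in KO and 2.15 ± 0.330 FPKM in WT cells (SD, n = 4 each). In all, the groups did not overlap for 6 of the 7 tested human members, against 62.7% of all tested genes. Since the members were chosen on this contrast, nothing is read from that count.

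Within KO cells the levels per length ran, highest to lowest, from MAGEA6 (43.5 ± 2.67 FPKM) and MAGED2 (39.8 ± 6.28 FPKM), whose libraries overlapped, through MAGEB2 (31.5 ± 1.73 FPKM), MAGED1, MAGEA3 and MAGEH1 to MAGEE1. The libraries of MAGED1 and MAGEA3 overlapped, as did those of MAGEA3 and MAGEH1. Within WT cells the order was MAGED2 (135 ± 4.68 FPKM), MAGED1 (68.5 ± 4.13 FPKM), MAGEH1 and MAGEE1, the last 2 with overlapping libraries, followed by the germline-restricted genes, all below 0.1 FPKM.

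In CT26 a single member was abundant. Maged1 (ENSMUSG00000025151) had 122, 117, 115 and 116 FPKM in KO libraries, against 88.6, 88.4, 85.8 and 91.8 FPKM in WT libraries. Every KO library was above every WT library, in a table where the groups of 51.5% of all tested genes did not overlap, and the log2 difference was 0.40 (SE 0.032). It ranked 21st among the 337 tested X genes. Maged2 and Mageh1 are listed at 0 in all 8 libraries, and with no fragment counts for CT26 it cannot be said how low they are. Magee1 had 0.178, 0.0853, 0.154 and 0.0950 FPKM in KO libraries, against 0.238, 0.377, 0.291 and 0.155 FPKM in WT libraries, overlapping and too low to be tested. MAGED1 and Maged1 thus differed in opposite directions, at log2 differences of -3.87 and 0.40. The lines were tabulated apart, and the difference between them was not tested.

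All 13 genes lie on the X, where more of the tested genes were lower than higher in KO cells of both lines. In MDA-MB-231 23.7% of the 469 tested X genes were higher and 46.3% lower in KO cells, with a median log2 difference of -0.23, against 42.6% and 25.7% of all tested genes and a median of 0.18. In CT26 15.1% of 337 X genes were higher and 38.6% lower, with a median of -0.09, against 22.3% and 33.4% of all tested genes and a median of -0.06. All tested genes of CT26 were thus also lower more often than higher. Many of the larger falls on its X lay at the start of the map order, from Shroom4 to Zfp182, and Maged1 lies outside that stretch. Set against the median of the other X genes, the log2 differences became 5.66 for MAGEA6, 5.23 for MAGEB2, 2.02 for MAGEA3, -3.64 for MAGED1, -1.52 for MAGED2, -0.81 for MAGEE1, 0.22 for MAGEH1 and 0.50 for Maged1. The plot of X genes in map order shows where the members stand.

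**Figure D3:**
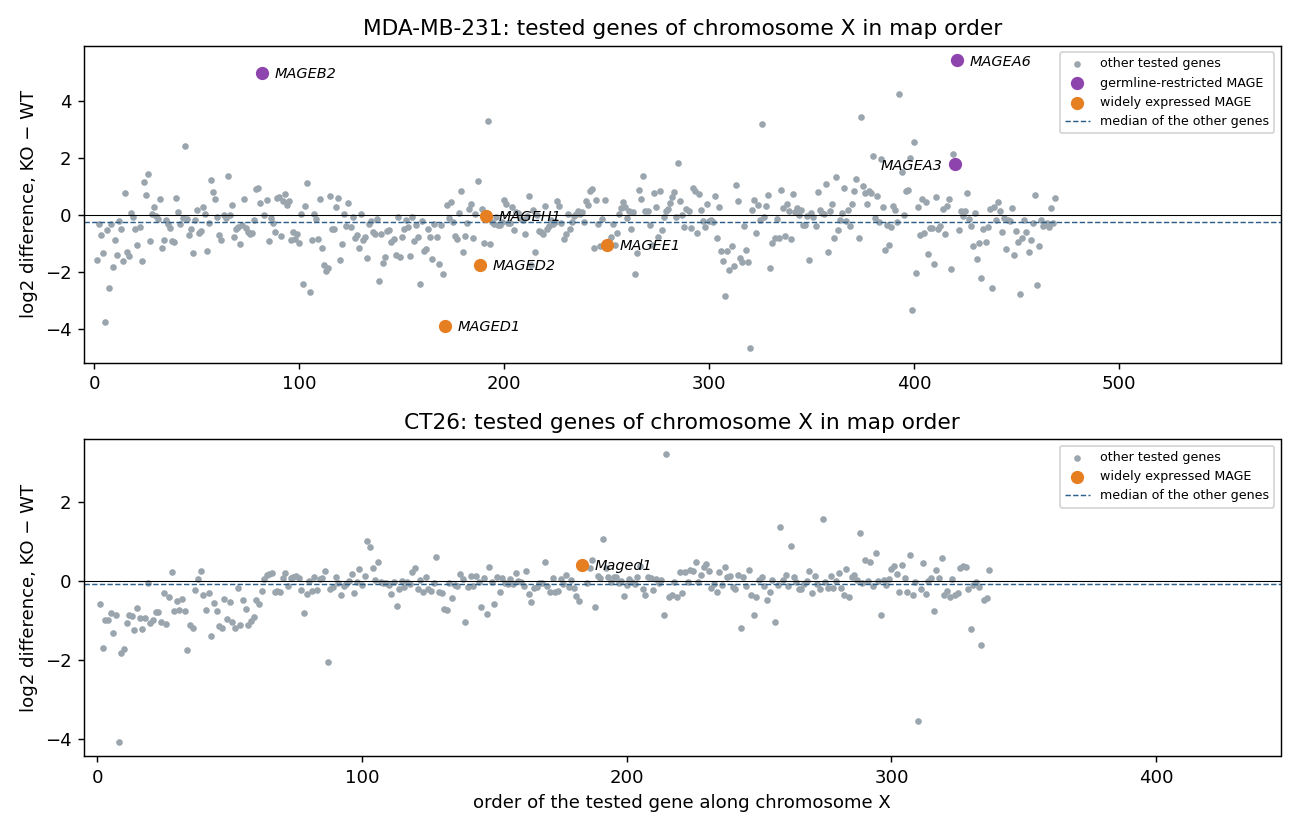
Log2 difference of FPKM + 1 (KO minus WT) of the tested genes of chromosome X, in their order along the chromosome, 469 in MDA-MB-231 (top) and 337 in CT26 (bottom), with the MAGE members in colour and the median of the other genes dashed. MAGEA6 and MAGEB2 top the upper panel at 5.43 and 4.999 from different arms of the chromosome, and MAGED1 lies at -3.87.

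The 4 MAGEA members span 857.2 kb of the long arm, with MAGEA3 and MAGEA6 63.8 kb apart, and the tested genes inside and beside that span moved in both directions. Inside it GABRA3, a subunit of the GABA-A receptor, averaged 3.58 ± 0.527 FPKM in KO and 0.0169 ± 0.0198 FPKM in WT cells (SD, n = 4 each; log2 difference 2.17, limma adjusted p = 2.54e-07). In the authors' deposited table its q-value is 0.218, which does not pass the threshold. GABRA3 reached 1 FPKM in KO libraries alone, so it was tested only through the group where it is high. GABRE, a further subunit of that receptor in the same span, averaged 3.83 ± 0.862 FPKM in KO and 16.5 ± 2.21 FPKM in WT cells (log2 difference -1.87, limma adjusted p = 6.61e-06). The nearest tested gene to the right, the centrin gene CETN2 at 57.2 kb, fell by 0.53 on the log2 scale (limma adjusted p = 4.42e-05), and NSDHL and ZNF185 beyond it read 0.16 and -0.04 and did not pass the test. ZNF185 was lower after upper-quartile scaling (-0.25, limma adjusted p = 0.00457) and after quantile normalization (-0.22, 0.00824), and NSDHL was higher without KO replicate 4 (0.20, 0.0430). To the left, VMA21 at 503.1 kb and HMGB3 at 921.7 kb were higher, at 0.58 and 0.34 (limma adjusted p = 0.00778 and 0.0117), and CD99L2 was lower, at -0.65 (2.71e-05). Neither VMA21 nor HMGB3 passed the test after upper-quartile scaling, and HMGB3 did not after quantile normalization (0.09).

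Around MAGED1, whose neighbours on both sides are sparse in this fit, the nearest gene moved with it. GSPT2, a translation termination factor gene 56.8 kb to the left, averaged 0.0660 ± 0.0635 FPKM in KO and 3.39 ± 0.215 FPKM in WT cells (SD, n = 4 each; log2 difference -2.04, limma adjusted p = 1.75e-07). GSPT2 reached 1 FPKM in WT libraries alone, so it was tested only through the group where it is high. Farther left, the deubiquitinase gene USP27X read -0.36 (limma adjusted p = 0.0109; -0.23 and 0.0622 after quantile normalization) and the phosphatase subunit gene PPP1R3F -1.72 (5.37e-05). To the right, EIF4A2P4 and GPR173 did not pass the test (0.36 and -0.10), though EIF4A2P4 did after quantile normalization (0.46, limma adjusted p = 0.0259), and TSPYL2 rose by 0.46 (limma adjusted p = 0.00979), though not past the threshold after upper-quartile scaling (0.26). In CT26 Gspt2, 93.9 kb to the right of Maged1, averaged 6.90 ± 0.0716 FPKM in KO and 5.01 ± 0.658 FPKM in WT cells (log2 difference 0.40, limma adjusted p = 0.00259), the same difference as that of Maged1 to 2 decimals. The pair MAGED1 and GSPT2 was thus lower in KO cells of MDA-MB-231, and the pair Maged1 and Gspt2 higher in KO cells of CT26. Beside them in CT26, Spin4 was higher (0.32, limma adjusted p = 0.00563; 0.21 and 0.0613 after quantile normalization), Apoo lower (-0.52, 0.0241), and Zxdb, Klhl15 and Eif2s3x did not pass the test. Spin4 reached 1 FPKM in KO libraries alone and so was tested only through the group where it is high. Apoo missed the threshold without KO replicate 2 or 3 or WT replicate 1, 2 or 4 (adjusted p = 0.0518 to 0.0623), and Klhl15 was lower without WT replicate 3 (-0.49, limma adjusted p = 0.0291). Around MAGEB2 the nearest tested gene, the synaptic gene IL1RAPL1 at 258.8 kb, rose by 0.44 (limma adjusted p = 0.00160). Farther left, AC097263.1 at 4569 kb (0.95, limma adjusted p = 0.00241) and EEF1B2P3 at 5219 kb (0.93, 3.27e-04) rose. The distance of EEF1B2P3 is that of its deposited locus, chrX:24693919-24996986, which may be wider than the gene. POLA1, directly before EEF1B2P3 in the map order of tested X genes, read -0.16 and was not among the genes taken. To the right, FTLP2 (0.03), the glycerol kinase gene GK (0.55) and TAB3-AS2 (-0.11) did not pass the test. TAB3, which comes before TAB3-AS2 in the map order of tested X genes, read -0.90 and was not among the genes taken. GK did pass after quantile normalization (0.62, limma adjusted p = 0.0343) and without KO replicate 1, KO replicate 3 or WT replicate 1 (adjusted p = 0.0280 to 0.0380).

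The tested genes nearest to MAGEA6 in their pattern over the 8 MDA-MB-231 libraries, by Euclidean distance of mean-centred log2(FPKM + 1), were MAGEB2 (distance 0.62), AC244153.1 (0.62), the calcium channel subunit gene CACNA2D4 (0.63), the actin-bundling gene LCP1 (0.99) and the collagen chaperone gene FKBP10 (1.18). MAGEA6 and MAGEB2 were both chosen for this difference, so nothing is read from their closeness, and the remaining 4 lie on chromosomes 17, 12, 13 and 17. The genes nearest to Maged1 in CT26 were Ddb1, Ubr7, Cdc20, Rpl15 and Hspa5, at distances of 0.062 to 0.080.

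No other type I MAGE gene reached the level at which genes were tested. Of 24 other type I MAGE genes 23 are tabulated in MDA-MB-231, 7 were above 0 in any library and 0 were tested, the highest value being 0.349 FPKM in KO (MAGEB1) and 0.239 FPKM in WT cells (MAGEC2). MAGEB1 was at 0.0911, 0, 0.235 and 0.349 FPKM in KO libraries and 0 in all WT libraries. MAGEC2, itself a TRIM28-binding member, was at 0 FPKM in all KO libraries, against 0.0896, 0.197, 0.222 and 0.239 FPKM in WT libraries, and MAGEC1 was likewise at 0 in KO and above 0 in WT libraries. Both MAGEB1 and MAGEC2 were named after their values were seen. Of 15 other type I genes tabulated for CT26 1 was above 0, at no more than 0.0598 FPKM. Of the other type II genes 2 were tested in MDA-MB-231 and both rose, against 42.6% of all tested genes. MAGEF1, which steers the iron-sulfur assembly factor MMS19 to degradation, averaged 33.0 ± 1.15 FPKM in KO and 22.8 ± 0.799 FPKM in WT cells (SD, n = 4 each; log2 difference 0.51, limma adjusted p = 2.65e-05). NSMCE3, the MAGE subunit of the SMC5/6 DNA repair complex, averaged 4.08 ± 0.329 FPKM in KO and 3.22 ± 0.176 FPKM in WT cells (0.27, limma adjusted p = 0.0217), and read 0.10 and missed the threshold after upper-quartile scaling. It also missed it without KO replicate 1 or 3 or WT replicate 3 or 4 (adjusted p = 0.0528 to 0.0570). Nsmce3 of CT26 averaged 6.10 ± 0.298 FPKM in KO and 4.89 ± 0.179 FPKM in WT cells (0.27, limma adjusted p = 0.00275).

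Other cancer-testis genes moved in both directions. On the X of MDA-MB-231, 83 of 94 listed genes are tabulated, 22 were above 0 and 4 were tested, of which 1 rose and 3 fell, against 42.6% and 25.7% of all tested genes. SPANXC reached 1 FPKM in WT libraries alone and PLAC1 in KO libraries alone. Both thus passed the filter only through the group where they are high, and the counts are a description. SPANXB1, a sperm nuclear protein gene, averaged 1.23 ± 0.646 FPKM in KO and 20.9 ± 2.78 FPKM in WT cells (SD, n = 4 each; log2 difference -3.33, limma adjusted p = 8.89e-07). CT83, which encodes the antigen KK-LC-1, averaged 11.7 ± 1.22 FPKM in KO and 23.8 ± 1.14 FPKM in WT cells (-0.97, limma adjusted p = 7.02e-06). SPANXC, which shares sequence with SPANXB1 and so may share its reads, averaged 0.0949 ± 0.190 FPKM in KO and 3.62 ± 1.70 FPKM in WT cells (-2.02, limma adjusted p = 1.07e-04). Its q-value in the authors' deposited table, 0.119, does not pass the threshold. PLAC1, a placental gene, averaged 5.04 ± 2.19 FPKM in KO and 0.380 ± 0.350 FPKM in WT cells (2.09, limma adjusted p = 1.85e-04). In CT26 1 of the listed X genes was tested and rose, Plac1, at 1.30 ± 0.169 FPKM in KO and 0.275 ± 0.0617 FPKM in WT cells (0.85, limma adjusted p = 7.21e-05). Plac1 too reached 1 FPKM in KO libraries alone.

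Of the autosomal cancer-testis genes 6 were tested in MDA-MB-231, of which 2 rose and 2 fell, against 42.6% and 25.7% of all tested genes. LY6K, a surface protein of the testis and of squamous carcinomas, averaged 69.3 ± 4.10 FPKM in KO and 1.99 ± 0.560 FPKM in WT cells (SD, n = 4 each; log2 difference 4.57, limma adjusted p = 1.85e-08). The RNA-binding protein gene IGF2BP3 averaged 27.5 ± 3.43 FPKM in KO and 14.2 ± 1.02 FPKM in WT cells (0.90, limma adjusted p = 3.63e-05). CABYR, a calcium-binding gene of the sperm tail, averaged 0.345 ± 0.207 FPKM in KO and 3.40 ± 0.485 FPKM in WT cells (-1.72, limma adjusted p = 6.66e-06). ZNF165, a zinc finger gene, averaged 0.218 ± 0.0543 FPKM in KO and 1.61 ± 0.205 FPKM in WT cells (-1.10, limma adjusted p = 1.03e-05). CABYR and ZNF165 reached 1 FPKM in WT libraries alone, so they passed the filter only through the group where they are high. SPA17 and TSSK6 did not pass the test, though SPA17 was lower after upper-quartile scaling (-0.36, limma adjusted p = 0.0015) and after quantile normalization (-0.33, 0.0034). In CT26 7 were tested, of which 1 rose and 1 fell, against 22.3% and 33.4%. Brdt, a testis bromodomain gene, averaged 2.11 ± 0.0997 FPKM in KO and 1.46 ± 0.177 FPKM in WT cells (0.34, limma adjusted p = 0.00512), and Spo11, which makes meiotic DNA breaks, 0.123 ± 0.0953 FPKM in KO and 2.06 ± 0.722 FPKM in WT cells (-1.42, limma adjusted p = 1.70e-04). The q-value of Spo11 in the authors' deposited table, 0.0517, does not pass the threshold. Spo11 reached 1 FPKM in WT libraries alone and so was tested only through the group where it is high. Acrbp did not pass (-0.38), though it was lower after quantile normalization (-0.51, limma adjusted p = 0.0322) and without KO replicate 2 or WT replicate 2 (-0.49 and -0.48, adjusted p = 0.0210 and 0.0246). Of 13 testis markers, most of them of germ cells, SOX9 was the only one tested in MDA-MB-231. SOX9 is a gene of somatic Sertoli cells that other tissues use too. It averaged 13.201 FPKM in KO and 13.005 FPKM in WT cells, a difference that did not pass the test. The others had means of no more than 0.114 FPKM in KO and 0.137 FPKM in WT cells, and 6 were at 0 in every library, among them the germ cell RNA-binding gene DAZL and the protamines PRM1 and PRM2. The summed level of the list ran from 13.1 to 13.65 FPKM in KO and 12.3 to 14.9 FPKM in WT libraries, nearly all of it SOX9. In CT26 8 of the 13 markers were above 0 and 2 were tested. Sox9 rose (1.42 FPKM in KO and 0.974 FPKM in WT cells, limma adjusted p = 0.00734), and Insl3, a gene of somatic Leydig cells, did not pass. No germ cell gene of the list was thus tested in either line. The summed level in CT26 was 3.17 to 5.03 FPKM in KO and 2.53 to 5.96 FPKM in WT libraries, and 5 markers were at 0 in every library. Markers of leukocytes, stroma and other cell types also differed. In MDA-MB-231 6 of 14 were tested, and CD3E was at 0 throughout. TUBB3, a neuronal tubulin gene, rose and CD14, COL1A1 and CSF1R fell, against 42.6% and 25.7% of all tested genes. The summed level was 107.7 to 114.9 FPKM in KO and 55.6 to 62.7 FPKM in WT libraries. A single gene reached 106.8 FPKM in KO, against a highest value of 41.4 FPKM in WT libraries, so the KO sum rests largely on that gene. In CT26 3 were tested, of which Cd14 rose and Col1a1 and Pdgfrb fell, against 22.3% and 33.4% of all tested genes. The sum there was 70.3 to 74.2 FPKM in KO and 43.8 to 48.6 FPKM in WT libraries. A single gene reached 56.5 FPKM in KO libraries of CT26, and 5 markers were at 0 throughout. The part of these markers in the results was not tested.

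**Figure D4:**
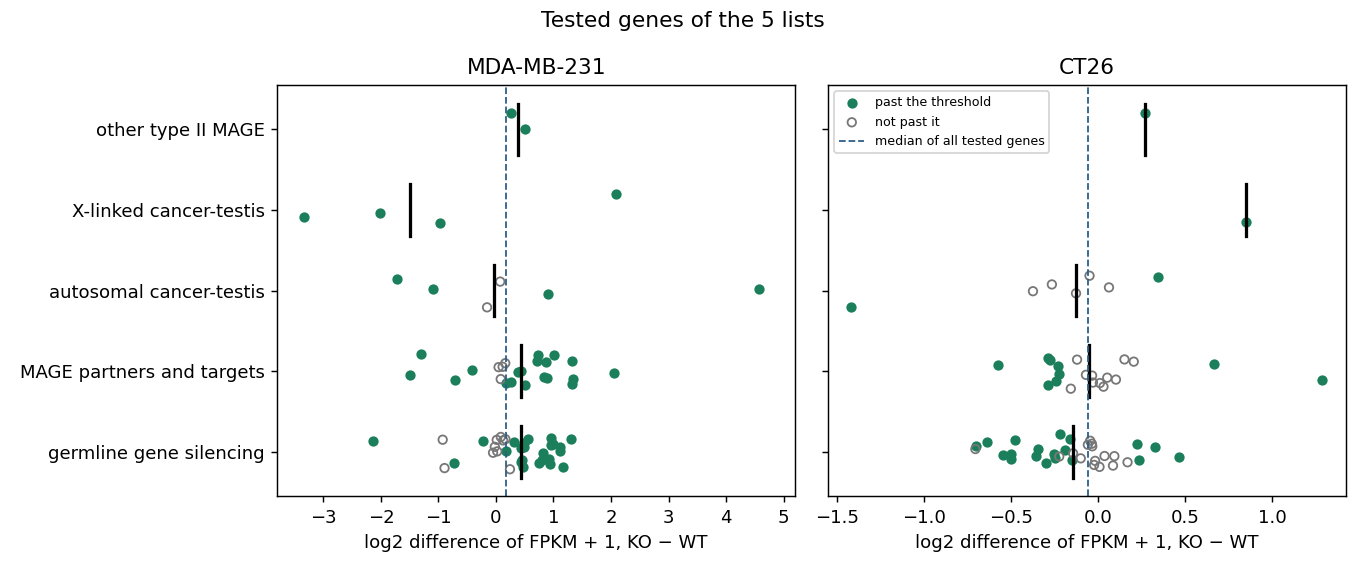
Log2 difference of FPKM + 1 (KO minus WT) of every tested gene of 5 lists in MDA-MB-231 (left) and CT26 (right), filled where limma's adjusted p was below 0.05, with the list median as a black bar and the median of all tested genes dashed. Cancer-testis genes lie on both sides of 0, and the partner and silencing lists have medians of 0.44 in MDA-MB-231 and of -0.05 and -0.15 in CT26.

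The proteins that MAGE members bind or act on were next. Of 23 tested partners and targets 15 were higher and 4 lower in KO cells of MDA-MB-231, against 42.6% and 25.7% of all tested genes, with a median log2 difference of 0.44 beside 0.18 over all genes. After upper-quartile scaling 11 were higher and 4 lower, and after quantile normalization 12 and 5. TRIM28, the ubiquitin ligase and transcriptional corepressor bound by MAGEA3, MAGEA6 and MAGEC2, averaged 1196 ± 43.8 FPKM in KO and 595 ± 18.8 FPKM in WT cells (SD, n = 4 each; log2 difference 1.01, limma adjusted p = 8.29e-08). NSMCE4A, a subunit of the SMC5/6 complex that holds NSMCE3, averaged 70.1 ± 1.496 FPKM in KO and 27.1 ± 2.68 FPKM in WT cells (1.35, limma adjusted p = 5.18e-07), and the proteasome receptor gene ADRM1 307 ± 5.19 FPKM in KO and 172 ± 3.87 FPKM in WT cells (0.83, limma adjusted p = 9.88e-08). DTNA, the dystrobrevin gene whose protein MAGEE1 binds, averaged 6.95 ± 0.813 FPKM in KO and 0.924 ± 0.355 FPKM in WT cells (2.06, limma adjusted p = 2.71e-06). Of those lower, FBP1, a gluconeogenic enzyme that MAGEA3 and TRIM28 mark for degradation, averaged 9.96 ± 1.11 FPKM in KO and 29.98 ± 1.99 FPKM in WT cells (-1.502, limma adjusted p = 8.42e-07), and the ubiquitin ligase gene PJA1, a partner of MAGED1, 5.01 ± 0.481 FPKM in KO and 13.9 ± 2.22 FPKM in WT cells (-1.30, limma adjusted p = 1.89e-05).

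In CT26 2 of 20 tested partners and targets were higher and 7 lower, against 22.3% and 33.4% of all tested genes, with a median of -0.05 beside -0.06. After upper-quartile scaling 4 were higher and 6 lower. Dtna averaged 1.82 ± 0.175 FPKM in KO and 0.155 ± 0.0673 FPKM in WT cells (SD, n = 4 each; 1.29, limma adjusted p = 5.97e-06), and so was higher in KO cells of both lines. In CT26 it reached 1 FPKM in KO libraries alone and so was tested only through the group where it is high. Tnfrsf10b, the mouse TRAIL receptor, averaged 15.7 ± 1.52 FPKM in KO and 9.49 ± 0.545 FPKM in WT cells (0.66, limma adjusted p = 1.19e-04). The kinase gene Chuk (-0.57), Adrm1 (-0.28), the retromer gene Vps35 (-0.23) and the G protein gene Gnas (-0.24) were lower, at limma adjusted p of 8.73e-05, 2.18e-04, 3.76e-04 and 7.65e-04. ADRM1 and Adrm1 thus differed in opposite directions in the KO cells of the 2 lines, and that contrast was not tested.

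The last list holds genes of DNA methylation and of germline promoter silencing, along with TET2, TET3 and TDG, which act to remove methylation. Of 34 tested in MDA-MB-231, 21 rose and 3 fell, against 42.6% and 25.7% of all tested genes, with a median log2 difference of 0.44. After upper-quartile scaling 19 rose and 5 fell, as they did after quantile normalization. DNMT3B, a de novo DNA methyltransferase, averaged 6.33 ± 0.418 FPKM in KO and 1.96 ± 0.118 FPKM in WT cells (SD, n = 4 each; log2 difference 1.31, limma adjusted p = 1.38e-06). PCGF6, a subunit of the E2F6-bound Polycomb complex that silences germline genes, averaged 21.4 ± 0.699 FPKM in KO and 10.6 ± 0.414 FPKM in WT cells (0.95, limma adjusted p = 1.20e-06). The histone deacetylase gene HDAC2 averaged 192 ± 12.6 FPKM in KO and 99.7 ± 4.80 FPKM in WT cells (0.94, limma adjusted p = 1.15e-06). The remodeller genes CHD4 (1.12) and HELLS (0.95) and the Polycomb gene EED (0.80) also rose, at limma adjusted p of 2.45e-06, 3.67e-06 and 2.60e-06. The 3 that fell, named after their values were seen, were the methyl-CpG reader ZBTB38 (-2.15), the X-linked histone demethylase gene KDM5C (-0.73) and L3MBTL2 (-0.23), at limma adjusted p of 5.20e-06, 7.89e-06 and 0.0327. L3MBTL2 missed the threshold without KO replicate 1, 2 or 4 or WT replicate 2 or 4 (adjusted p = 0.0553 to 0.0863), and its q-value in the authors' deposited table is 0.0630. In CT26 4 of 34 rose and 15 fell, against 22.3% and 33.4%, with a median of -0.15, and after upper-quartile scaling 5 rose and 11 fell. Mbd2, a methyl-CpG binding protein, averaged 70.9 ± 3.74 FPKM in KO and 116 ± 6.43 FPKM in WT cells (-0.70, limma adjusted p = 1.08e-05). Hells averaged 42.6 ± 3.36 FPKM in KO and 66.7 ± 3.15 FPKM in WT cells (-0.64, limma adjusted p = 4.63e-05) and Pcgf6 13.1 ± 0.743 FPKM in KO and 18.7 ± 0.563 FPKM in WT cells (-0.48, limma adjusted p = 7.15e-05). The methyl-CpG binding gene Mbd1 (-0.55) and Tet3 (-0.50), whose enzyme oxidises methylcytosine, fell and the deacetylase gene Hdac3 (0.23) rose, at limma adjusted p of 5.21e-05, 2.23e-04 and 3.44e-04. The list was measured as RNA, and its part in the MAGE levels was not tested.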

How the data were processed

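The deposited tables give, per line, each gene's level in FPKM for every library, with the authors' p-value and q-value. Per the submitters' processing notes, bcl2fastq 2.18, STAR 2.5.4a, Cufflinks 2.2.1 and Cuffdiff were used, with builds hg38 and mm10. The sources used here name neither strand use nor read length, so reads of a gene and an overlapping antisense gene cannot be told apart. All 58713 human gene IDs were found in GENCODE 29, whose gene coordinates are printed for the members. The deposited chromosome and end were the same for 33059 of them, and the start as well for 28468. Neighbours were taken, and their distances measured, by their deposited coordinates. The lines were tabulated and normalized apart and were not compared by test.

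Values were fitted as log2(FPKM + 1) in R 4.3.3 with limma 3.58.1, which used a trend of the variance with the mean and genotype as the sole term. Genes with at least 1 FPKM in at least 4 of 8 libraries were tested (two-sided), p was adjusted by Benjamini-Hochberg over every tested gene, and the threshold was 0.05, and the fit was tested on simulated data. The scale understates changes of low genes. A gene that is near 0 in 1 group can pass the filter only through the other group, which favours a call for it. Genes whose estimate the authors marked as failed (13 human, 212 mouse) were left out. Fragments were estimated from FPKM steps and transcript lengths, and cover counting error only. The members and lists were chosen with earlier results of these data known.

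Named genes, beside the members, were up to 6 genes per list and line with the smallest adjusted p and at least 1 FPKM in the higher group, the 3 nearest tested genes on each side, the 5 nearest patterns and the targeted gene. Alternatives were other pseudocounts, filters and scalings, a replicate block, leaving out each library, and the authors' q-value at the same threshold. Libraries carry replicate numbers 1 to 4 in each group. The remaining steps ran in Python 3.11.15 with pandas 2.3.3, numpy 2.4.6 and matplotlib 3.10.9.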

Additional observations from a re-analysis of the deposited data

Results flagged for a closer look

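MAGEA4 of MDA-MB-231 stood apart in 1 KO library, replicate 1, which read 0.105717 FPKM while the other 3 KO libraries and all 4 WT libraries read 0 FPKM. That is about 2 estimated fragments. A gene seen in 1 of 4 libraries is always set apart in this way, so nothing is read from it.

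MAGED1 and Maged1 differed in opposite directions: the log2 difference between KO and WT was -3.87 in MDA-MB-231, where every KO library was below every WT library, and 0.4 in CT26, where every KO library was above every WT library. The difference between the lines was not tested.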

How the results depend on the processing

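The counts over all genes stayed within 1.5 times of 9860 in MDA-MB-231 and 6327 in CT26 under every alternative run, including the authors' deposited q-value at the same threshold (8924 and 5458). Leaving out 1 library gave 9338 to 9602 and 5772 to 6007. Upper-quartile scaling moved the median of all MDA-MB-231 genes to -0.01 and the split of changed genes to 4736 higher and 4851 lower, against 6149 and 3711 as deposited. In CT26 it gave 3313 higher and 2841 lower, against 2534 and 3793.

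List counts moved mainly with the filter. With no filter MDA-MB-231 had 2 other type I MAGE genes called, both lower in KO, 1 other type II gene, and 8 cancer-testis genes on the X and 8 on autosomes. With at least 5 FPKM required, fewer genes were tested, and the counts were 1, 2 and 2 for the last 3 lists, and 0 for both cancer-testis lists of CT26, with 0 of their genes tested. The 2 other type II genes called became 1 after upper-quartile scaling and with the replicate block, and 1 to 2 when each library was left out in turn. The cause of these last changes was not tested.

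Replicate numbers were not taken as pairs, which would have needed every correlation to exceed 0.1: deviations of same-numbered libraries correlated at -0.04 to 0.00 in MDA-MB-231, where no library matched its own number best, and at 0.03 to 0.08 in CT26, where every library did, a hint from the data and not from the design. The replicate block gave 9648 and 6031 changed genes.

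Of the 8 members tested, MAGEH1 alone changed direction under an alternative (-0.16 to 0.22); the other 5 members were too low to test. The pseudocount set the size for low genes: at 0.1 and 5 the log2 difference was 8.43 and 3.27 for MAGEA6, 8.10 and 2.86 for MAGEB2, and 4.24 and 0.60 for MAGEA3. Depth limits MAGEA4, MAGEA12 and the WT values of MAGEA3, MAGEA6 and MAGEB2, which rest on at most 3 fragments.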

Other observations

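MAGEH1 of MDA-MB-231 read higher in the libraries numbered 1 and 2 than in those numbered 3 and 4 in both genotypes, at 2.31 to 2.40 FPKM against 1.90 to 1.92 FPKM in KO cells and at 2.42 to 2.45 FPKM against 1.85 to 1.89 FPKM in WT cells. TAB3-AS2, a neighbour of MAGEB2, went the other way, at 0, 0, 2.91 and 4.68 FPKM in KO replicates 1 to 4 and at 0, 0, 4.98 and 4.05 FPKM in WT replicates 1 to 4. Both were noticed after the values were seen and were not tested.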
